A study of Mus musculus with 6 samples.

Results

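The prostaglandin and leukotriene pathway was followed here through 10 genes, taken by name from a table of read counts for 54532 genes: the cyclooxygenase genes Ptgs1 and Ptgs2, the terminal synthase genes Ptges, Tbxas1 and Hpgds, the prostanoid receptor genes Ptger2, Ptger4 and Ptgir, and the leukotriene genes Alox5 and Alox5ap. All 10 were found and all 10 had enough reads to be tested. The cells were RAW264.7, a mouse macrophage line labelled wild type, in a control group grown alone (3 libraries) and a group grown for 48 h together with TTJ cells (3 libraries). TTJ cells are Tsc2-null cells from an angiomyolipoma of a mouse model of tuberous sclerosis complex. In both groups the RAW264.7 cells were sorted by flow cytometry before RNA was taken, and RAW264.7 and TTJ cells were kept in the same medium with serum. No source used here gives the marker used for the sort, and each line is a single established line. Replicates A, B and C are not labelled as separate cultures, so the spread that p-values measure may be a technical one. The question put by the design is what Tsc2-null cells do to the polarization of macrophages.

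In this pathway phospholipases release arachidonic acid from membranes, the cyclooxygenases turn it into an unstable endoperoxide, and terminal synthases convert that into prostaglandin E, prostaglandin D, prostacyclin or thromboxane. On the other branch 5-lipoxygenase, helped by its activating protein, turns the same fatty acid into leukotrienes. Macrophages are a known source of both kinds of mediator, and they also carry receptors for several of them. Textbook accounts call Ptgs1 the constitutive and Ptgs2 the inducible cyclooxygenase gene.

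Total counts per library ran from 14329487 to 17358280. Values below are CPM, counts scaled to library sizes that were adjusted by the TMM method, given as mean ± SD with n = 3 per group, and levels of different genes are compared only as FPKM, which also divides by gene length. Changes were tested with edgeR's quasi-likelihood test, with p-values adjusted by the Benjamini-Hochberg method over 12972 genes and a threshold of 0.05. All 10 general macrophage markers examined, among them Lyz2, Csf1r and Cd14, were present in both groups, with a summed level of 11800 to 11895 CPM alone and 12336 to 12666 CPM in coculture, most of it from Lyz2. Of these markers 4 rose (Lyz2, Cd14, Adgre1 and, by 1.86-fold, Itgam) and 3 fell (Tyrobp, Spi1 and Cd68, with log2 changes of -0.30, -0.23 and -0.10). The cocultured libraries also held epithelial transcripts: of 15 renal and simple epithelial markers 10 could be tested and all 10 were higher, in a direction fixed by their near absence from lone cells. Their 15-gene sum was 0 to 0.24 CPM alone and 361 to 417 CPM in coculture, led by Cdh16 (122 ± 12.2 CPM), Krt8 (91.8 ± 8.36 CPM) and Krt7 (57.2 ± 5.03 CPM), while Epcam and Lhx1 had 0 counts in every library. Of 11 mesenchymal markers 4 could be tested. Col5a1, Cav1 and Timp3 had 1, 1 and 0 counts over the lone libraries and reached the filter only in coculture, which fixed their direction, and Acta2 did not pass (edgeR adjusted p = 0.268). The sum of the 11 went from between 1.79 and 1.93 CPM to between 59.3 and 63.8 CPM, with Col3a1, Thy1 and Pdgfra at 0 counts throughout. Among 6 mast cell and basophil markers the sum never passed 0.574 CPM. In coculture it came from Ms4a2 alone, with 0 counts in each lone library and 5, 9 and 7 in the cocultured ones. Cpa3 and Kit went the other way, with 5 and 2 counts over the lone libraries and 0 in coculture. The part of RNA from other cells in the changes described here was not tested, and with sorted bulk cells a change in the share of cells that use a gene and a change in RNA per cell cannot be told apart.

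In coculture 4 of the 10 genes rose (Ptgs1, Ptgs2, Tbxas1 and Alox5), 1 fell (Hpgds), and 5 did not pass the threshold (Ptges, Ptger2, Ptger4, Ptgir and Alox5ap). Over all genes tested 21.7% rose and 15.2% fell. The median log2 change of the 10 was 0.55, against 0.00 for all genes tested, whose quartiles were -0.14 and 0.23. The 10 were chosen with earlier results of these data known, so these values are a description only. The genes that rose were thus both cyclooxygenases, the thromboxane synthase and 5-lipoxygenase. Of the other synthases Hpgds fell and Ptges did not pass. The 3 receptor genes did not pass either, but the log2 change of Ptger2 (0.62) was close to that of Alox5 (0.63). No split between enzymes and receptors is therefore read from the calls.

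**Figure D1:**
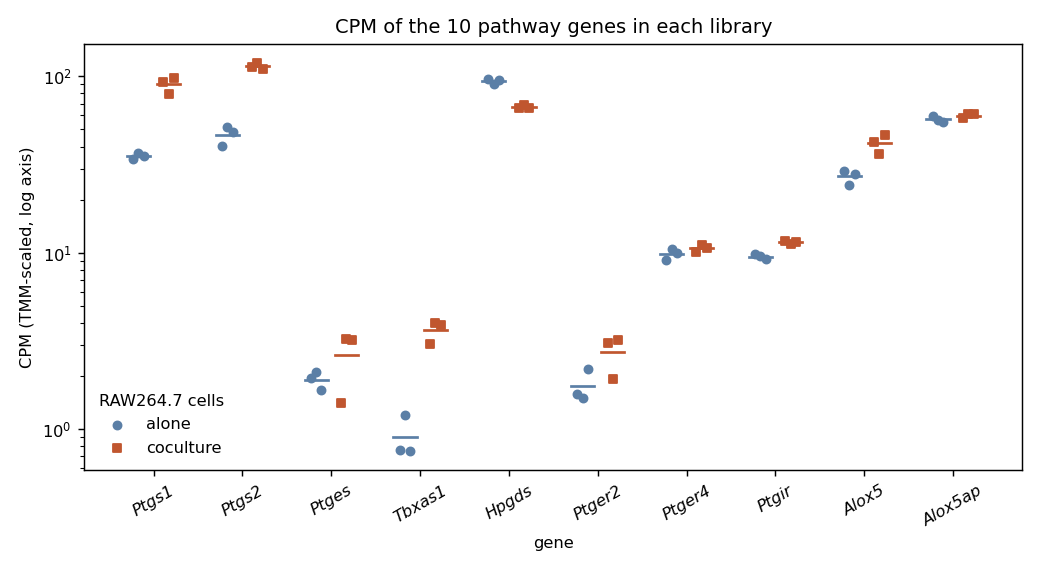
Level of each of the 10 genes in every library, in CPM on a log axis, for RAW264.7 cells alone (circles) and in coculture (squares), with bars at the group means (n = 3 libraries each). The groups stand apart for Ptgs1, Ptgs2, Tbxas1, Hpgds, Alox5 and, narrowly, Ptgir, and overlap for Ptges, Ptger2, Ptger4 and Alox5ap.

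Both cyclooxygenase genes rose about as much. Ptgs1 (chromosome 2, 36230426 to 36252272, mm10) was at 34.1, 36.6 and 35.5 CPM in the lone libraries A, B and C and at 92.9, 79.1 and 98.1 CPM in the cocultured ones. Every cocultured library was above every lone one, and coculture replicate B was the lowest of the high group. The rise was 2.54-fold (log2 1.35, SE 0.072, edgeR adjusted p = 5.18e-14), from 35.4 ± 1.26 to 90.0 ± 9.81 CPM. Ptgs2 (chromosome 1, 150100031 to 150108227) was at 40.5, 51.4 and 48.5 CPM alone and at 113, 119 and 110.1 CPM in coculture. Again the groups did not overlap, and the lone libraries were spread more widely than those of Ptgs1. Its rise was 2.43-fold (log2 1.28, SE 0.0668, edgeR adjusted p = 3.15e-14), from 46.8 ± 5.64 to 114 ± 4.31 CPM. Of all genes tested, 8.06% had a larger log2 change than Ptgs1 and 8.32% a larger one than Ptgs2.

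The balance between the isozyme genes was described by the share of Ptgs2 in their summed FPKM. It was 50.2%, 54.3% and 53.7% in the lone libraries and 50.8%, 56.0% and 48.8% in the cocultured ones. The groups overlapped, with means of 52.7% ± 2.23 alone and 51.9% ± 3.71 in coculture (n = 3 each, exact two-sided permutation test p = 0.9, where 3 against 3 cannot go below 0.1). The difference of -0.871 percentage points changed sign, to 0.677, without coculture replicate C. On this length-scaled measure the transcripts stood at close to equal levels in both conditions.

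The stretches before the start sites of the cyclooxygenase genes and of Alox5, the 3 genes that changed and whose RefSeq start is also the start in the deposited table, are shown because these genes rose together. Each is the 250 bases before the start, read 5′ to 3′ on the gene's own strand from RefSeq promoters of GRCm38.p6, the assembly of mm10. They lie at chr2:36230176-36230425 on the plus strand, chr1:150099781-150100030 on the plus strand and chr6:116461179-116461428 on the minus strand. Capitals mark matches, on either strand and without overlap, to any of 9 motifs. These were CGTCA as the core of the cyclic AMP response element, CACGTG as the E-box, TATAAA as the motif bound by the TATA-binding protein, and GGGCGG as the motif bound by Sp1. TGANTCA stood for the AP-1 site, GAGGAA for the core of sites of PU.1, the macrophage lineage factor, and GAAANNGAA for the interferon-stimulated response element. TTNNGNAA stood for the C/EBP site and GGGANTTTC for a form of the NF-kB site.
Ptgs1: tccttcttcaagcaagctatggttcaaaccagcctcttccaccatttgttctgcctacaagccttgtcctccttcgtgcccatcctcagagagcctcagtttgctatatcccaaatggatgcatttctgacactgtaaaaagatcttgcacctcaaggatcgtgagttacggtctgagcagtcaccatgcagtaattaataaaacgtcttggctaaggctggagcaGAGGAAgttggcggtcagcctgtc
Ptgs2: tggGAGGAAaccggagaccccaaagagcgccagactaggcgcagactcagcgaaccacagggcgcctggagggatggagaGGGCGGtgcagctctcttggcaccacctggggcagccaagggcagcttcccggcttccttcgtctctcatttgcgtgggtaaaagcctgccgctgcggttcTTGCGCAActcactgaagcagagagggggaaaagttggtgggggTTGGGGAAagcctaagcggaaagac
Alox5: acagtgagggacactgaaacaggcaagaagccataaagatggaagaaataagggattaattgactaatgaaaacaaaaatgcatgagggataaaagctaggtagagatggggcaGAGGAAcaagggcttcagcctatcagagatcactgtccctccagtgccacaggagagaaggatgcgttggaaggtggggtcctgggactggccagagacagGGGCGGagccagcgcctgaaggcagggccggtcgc

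All 3 stretches held GAGGAA, which 23.3% of 32851 mouse promoter windows of the same length hold. It lay 24 to 19 bases before the start of Ptgs1, 247 to 242 before that of Ptgs2 and 136 to 131 before that of Alox5. GGGCGG, found in 32.7% of windows, was present before Ptgs2 and Alox5. TTNNGNAA, found in 36.8% of windows, was matched before Ptgs2 at 69 to 62 bases, where the letters read the same on both strands, and at 25 to 18 bases. These stretches held no match to the other 6 motifs. Bases after the start were not searched, so sites there, or before another start of the same gene, are not covered. The GC content was 48.0% for Ptgs1, 61.6% for Ptgs2 and 52.8% for Alox5. RefSeq windows were found for 9 of the 10 genes, Alox5ap being the other, and GAGGAA was also matched before Ptges, Tbxas1, Hpgds and Ptgir, so genes that rose, fell and did not pass the threshold all held it.

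The 3 protein-coding genes whose profile over the 6 libraries was closest to that of Ptgs2 were Prrg4, Hist1h1c and Ms4a6b. Closeness was the root mean square difference in log2 CPM after each gene was centred on its lone libraries, over 11484 genes, and it was 0.0354 for Prrg4, 0.0429 for Hist1h1c and 0.0817 for Ms4a6b. Prrg4, which encodes a membrane protein with a Gla domain, went from 14.2 ± 1.83 to 33.7 ± 1.47 CPM. Hist1h1c, a linker histone gene, went from 21.1 ± 2.80 to 52.4 ± 1.89 CPM, and Ms4a6b, a gene of the MS4A family of membrane proteins, from 17 ± 1.22 to 40.4 ± 2.27 CPM. Histone genes have close relatives, so reads of Hist1h1c are uncertain.

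The terminal synthases did not move together. Tbxas1 (chromosome 6, 38875404 to 39084585), which encodes thromboxane A synthase, was counted 11, 20 and 13 times alone and 43, 62 and 66 times in coculture. In CPM these were 0.757, 1.2 and 0.749 alone and 3.01, 3.96 and 3.88 in coculture. The groups did not overlap, and the lowest cocultured library was well above the highest lone one. The rise, 3.98-fold from 0.902 ± 0.258 to 3.62 ± 0.525 CPM (log2 1.99, SE 0.296, edgeR adjusted p = 5.39e-06), was the largest of the 10 in fold terms and started from the lowest level. Its 95% interval, 2.61-fold to 6.08-fold, overlaps those of Ptgs1 (2.29 to 2.82) and Ptgs2 (2.21 to 2.67). On log2(FPKM + 1) the change of Tbxas1 was 0.35, still past the threshold, because the pseudocount exceeds its level. The first 762 bases of the Tbxas1 span overlap Hipk2 on the opposite strand, which had 1580 to 2069 counts per library. Whether counting used strand is not given, so reads from that stretch cannot be assigned.

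Hpgds (chromosome 6, 65117293 to 65144908), which encodes the haematopoietic prostaglandin D synthase, was the member that fell. It was at 96.2, 90.0 and 95.5 CPM in the lone libraries and at 66.1, 68.7 and 66.4 CPM in the cocultured ones. All cocultured libraries lay below all lone ones, and both groups were tight. The level was 1.40-fold lower in coculture (log2 -0.49, SE 0.0534, edgeR adjusted p = 4.74e-08), from 93.9 ± 3.40 to 67.1 ± 1.40 CPM. Of all genes tested, 3.86% had a lower log2 change. A pseudogene, Gm17147, lies within the gene on the other strand and had 21 to 26 counts alone and 3 to 10 in coculture, against 944 to 1657 counts per library for Hpgds.

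Ptges (chromosome 2, 30889471 to 30929863), the inducible microsomal prostaglandin E synthase gene, was scarce. Its CPM was 1.93, 2.10 and 1.67 alone and 1.40, 3.25 and 3.17 in coculture. Coculture replicate A was the lowest of all 6 libraries and the other cocultured libraries the highest, so the groups overlapped. The log2 change was 0.47 (95% interval -0.15 to 1.09, edgeR adjusted p = 0.235). Without coculture replicate A it was 0.76 with an adjusted p of 0.0494, within a range of 0.0494 to 0.579 over 17 alternatives.

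**Figure D2:**
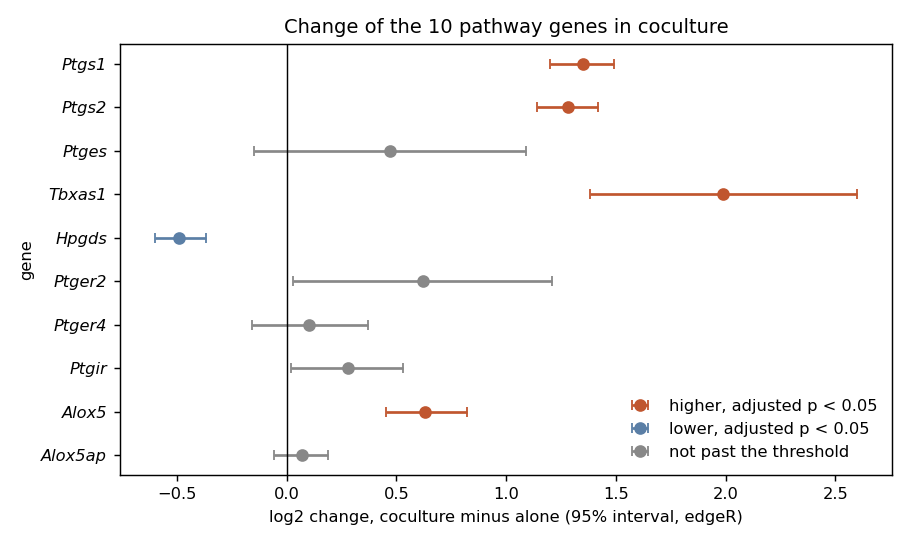
Log2 change in coculture against RAW264.7 cells alone for each of the 10 genes, with 95% intervals from the edgeR fit that are not adjusted for the number of genes (3 libraries per group). Tbxas1, Ptgs1, Ptgs2 and Alox5 lie to the right of 0 and Hpgds to the left, the intervals of Ptgir and Ptger2 also lie to the right without passing the adjusted threshold, and those of Ptges, Ptger4 and Alox5ap cross 0.

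The 3 receptor genes did not pass the threshold, and the size of change that their data allow differed. DESeq2 and limma-voom, like edgeR, called 0 of the 3 after adjustment. Ptger2 (chromosome 14, 44988195 to 45003820) and Ptger4 (chromosome 15, 5206661 to 5244187) encode prostaglandin E receptors EP2 and EP4, and Ptgir (chromosome 7, 16906490 to 16910905) encodes the prostacyclin receptor. All 3 receptors are known to raise cyclic AMP. Ptger2 was at 1.58, 1.5 and 2.19 CPM alone and at 3.08, 1.91 and 3.17 CPM in coculture, so coculture replicate B fell inside the lone range. Its log2 change was 0.62 (95% interval 0.03 to 1.21, edgeR adjusted p = 0.0921), and without coculture replicate B it was 0.82 with an adjusted p of 0.0405, within a range of 0.0405 to 0.282 over 17 alternatives. It rested on 23 to 54 counts per library.

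Ptger4 was at 9.08, 10.5 and 9.91 CPM alone and at 10.1, 11.0 and 10.6 CPM in coculture. The groups overlapped, and the log2 change was 0.10 (95% interval -0.16 to 0.37, edgeR adjusted p = 0.579), so a rise above 1.29-fold lies outside the interval. The Ptger4 span overlaps Ttc33 on the opposite strand over 11676 bases, and Ttc33 had 375 to 541 counts per library, against 132 to 180 for Ptger4. Whether counting used strand is not given, so reads from that stretch cannot be assigned, and the interval does not cover this. Ptgir was at 9.77, 9.53 and 9.16 CPM alone and at 11.7, 11.2 and 11.5 CPM in coculture. Here the groups did not overlap, and all cocultured libraries were a little higher. The log2 change was 0.28 (95% interval 0.02 to 0.53, edgeR adjusted p = 0.0887). In limma fits of log2 FPKM it passed, with an adjusted p of 0.0333 when 1 was added to each value and 0.0396 when 0.1 was added. Over 18 alternatives the adjusted p ranged from 0.0333 to 0.179.

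Among the 3 receptor genes Ptgir had the highest length-scaled level and Ptger2 the lowest. The share of Ptger4 in their summed FPKM was 29.7%, 33.4% and 32.0% alone and 27.0%, 30.8% and 28.1% in coculture. The groups overlapped (31.7% ± 1.87 and 28.6% ± 1.93, n = 3 each, exact two-sided permutation test p = 0.2).

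On the leukotriene branch the enzyme rose and its partner did not pass the threshold. Alox5 (chromosome 6, 116410077 to 116461178), which encodes 5-lipoxygenase, was at 28.9, 24.3 and 27.9 CPM alone and at 42.3, 36.5 and 46.5 CPM in coculture. The groups did not overlap, and replicate B was the lowest library of each group. The rise was 1.55-fold (log2 0.63, SE 0.0888, edgeR adjusted p = 2.41e-06), from 27.0 ± 2.42 to 41.8 ± 5.04 CPM. Alox5ap (chromosome 5, 149264767 to 149288153), which encodes the membrane protein that presents arachidonic acid to 5-lipoxygenase, was at 59.5, 56.8 and 55.4 CPM alone and at 57.7, 61.0 and 61.2 CPM in coculture. The groups overlapped, and the log2 change was 0.07 (95% interval -0.06 to 0.19, edgeR adjusted p = 0.407), so a rise above 1.14-fold lies outside the interval.

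In length-scaled terms Alox5ap was the most abundant of the 10 transcripts in both conditions, at 40.2 ± 1.47 FPKM alone and 42.2 ± 1.41 FPKM in coculture, above 89.3% and 89.9% of genes tested. In lone cells the next was Hpgds at 14.6 ± 0.544 FPKM, followed by Ptgs2 at 10.2 ± 1.22 and Ptgs1 at 9.10 ± 0.314 FPKM, which overlapped each other, and Alox5 at 6.56 ± 0.596 FPKM. In coculture Ptgs2 (24.9 ± 0.969 FPKM) and Ptgs1 (23.1 ± 2.49 FPKM), again overlapping, stood above Hpgds (10.4 ± 0.232 FPKM) and Alox5 (10.2 ± 1.21 FPKM), which overlapped each other. The order of the cyclooxygenases and Hpgds thus turned round between the conditions, with no overlap of Hpgds with either in either group. The receptors and the scarce synthases kept below these, with Ptgir at 2.84 ± 0.0915 and 3.44 ± 0.0653 FPKM and Ptger4 at 1.47 ± 0.105 and 1.59 ± 0.0739 FPKM. Ptges (0.482 ± 0.0542 alone and 0.663 ± 0.267 FPKM in coculture), Ptger2 (0.338 ± 0.0726 and 0.523 ± 0.134 FPKM) and Tbxas1 (0.0989 ± 0.0281 and 0.397 ± 0.0580 FPKM) were the lowest, did not overlap one another alone, and overlapped as neighbours in coculture.

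**Figure D3:**
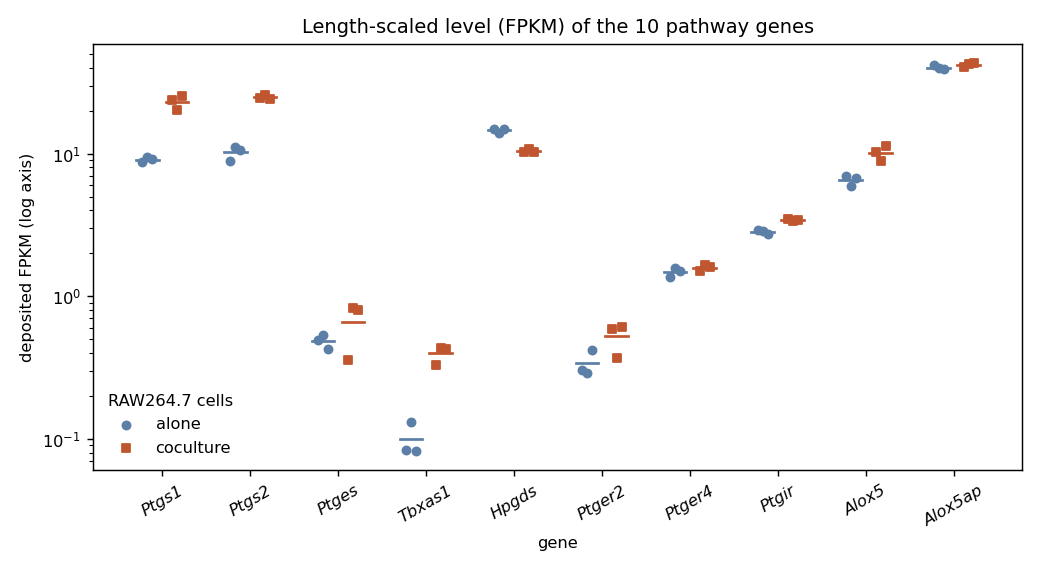
Deposited FPKM of the 10 genes in each library on a log axis, with bars at the group means (n = 3 libraries each), for comparison of levels between genes. Ptgs1 and Ptgs2 lie below Hpgds in lone cells and above it in coculture, and Alox5ap is highest in both.

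**Figure D4:**
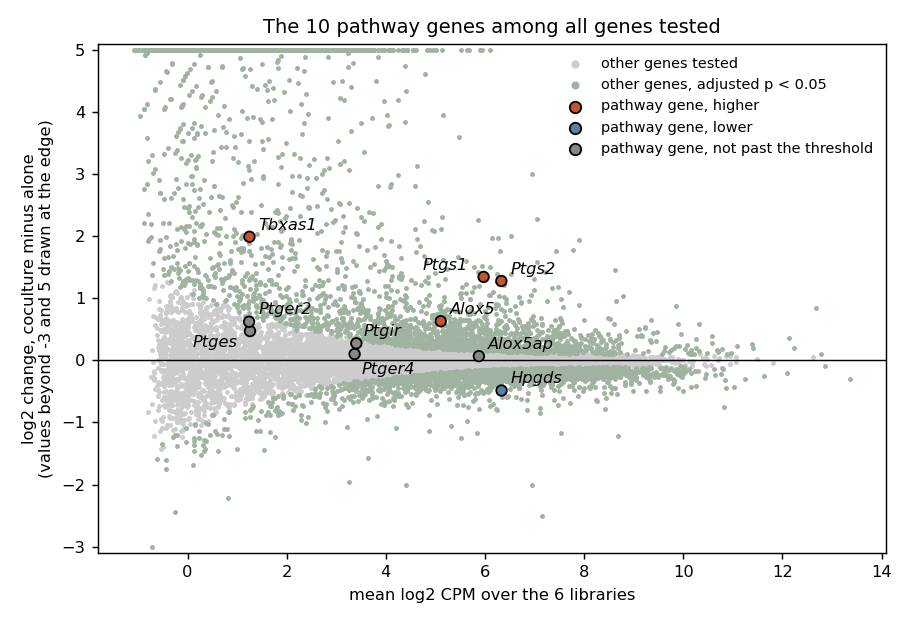
Log2 change in coculture against mean log2 CPM for all 12972 genes tested, with the 10 pathway genes outlined and named and changes beyond the axis drawn at its edge. Ptgs1 and Ptgs2 sit in the upper part of the cloud at a mid to high level, Tbxas1 higher up at a low level, and Hpgds near the lower edge.

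The rest of the pathway was described through 7 lists holding 66 gene IDs, of which 32 could be tested, 9 rose and 4 fell, with a median log2 change of 0.11. Over all genes tested 21.7% rose and 15.2% fell, so these counts, and those of the lists below, which hold few genes each, are read as descriptions. The 9 include Slco2a1 and Fpr2, whose direction the filter fixed. Ptgr3 was not matched by name, and Dpep2 stands on 2 gene IDs. Of 13 tested genes for release and re-esterification of arachidonic acid 3 rose and 2 fell, shares near those over all genes tested. Pla2g4a, the cytosolic phospholipase that releases arachidonic acid, was abundant and rose 1.35-fold, from 264 ± 6.64 to 357 ± 5.74 CPM (edgeR adjusted p = 2.61e-09). Pla2g15, a lysosomal phospholipase, rose 1.71-fold to 44.5 ± 2.57 CPM (adjusted p = 2.45e-08), and Pla2g6, a calcium-independent phospholipase, was 1.28-fold lower at 17.6 ± 1.96 CPM (adjusted p = 0.00576). The other members that passed were Acsl4, which activates arachidonic acid and rose 1.11-fold, and Daglb, a diacylglycerol lipase that was 1.11-fold lower.

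Of 5 other prostanoid synthases that could be tested, 1 passed, and it fell. Akr1b3, an aldose reductase with prostaglandin F synthase activity, was 1.34-fold lower, from 417 ± 12.7 to 312 ± 9.59 CPM (edgeR adjusted p = 6.93e-09). The constitutive prostaglandin E synthase genes Ptges2 (30.6 ± 3.55 and 29.1 ± 1.82 CPM) and Ptges3 (257 ± 28.0 and 251 ± 7.94 CPM) did not pass. The remaining 3 were too low to test and had 0 counts in all lone libraries. Over the cocultured libraries Ptgds, the lipocalin-type prostaglandin D synthase, had 36 counts (at least 12.4-fold higher, with 3 counts over the lone group as the floor), Akr1c18, a hydroxysteroid dehydrogenase, had 40 (at least 13.8-fold higher) and Ptgis, the prostacyclin synthase, had 9 (at least 3.10-fold higher). These bounds cover counting error only, and the 3 genes were singled out after their values were seen. In the lone libraries 10 of the 15 epithelial markers were at 0 as well, but 2 of these, Epcam and Lhx1, were also at 0 in coculture. The part of other cells in the 3 synthase genes was not tested.

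Of 4 tested genes for prostaglandin transport and inactivation 3 rose, against 21.7% of all genes tested, and for 1 of the 3, Slco2a1, the direction was fixed. Slco2a1, the prostaglandin uptake transporter, was counted 0, 3 and 0 times in lone libraries and 42, 67 and 67 times in cocultured ones. Scaled to depth the ratio was 60.7 (exact 95% interval 20.4 to 297, for counting error alone). Only its cocultured libraries reached the filter, and its fitted log2 change of 5.75 became 8.88 without alone replicate B. Abcc4, an exporter of prostaglandins and cyclic AMP, rose 1.21-fold to 88.9 ± 5.17 CPM (edgeR adjusted p = 0.000252), and Ptgr1, a reductase that inactivates prostaglandins and leukotrienes, rose 1.26-fold to 21.6 ± 2 CPM (adjusted p = 0.0109). The call of Ptgr1 was lost without alone replicate B (adjusted p = 0.0528) or coculture replicate B (0.0582), the latter being the highest over 18 alternatives, whose lowest was 0.00562. Hpgd, the dehydrogenase that inactivates prostaglandins, was too low to test, at 17, 6 and 24 counts in lone and 1, 2 and 5 in cocultured libraries.

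Among the other prostanoid receptors 1 of 6 could be tested. Ptger1, the prostaglandin E receptor EP1 gene, had 29, 29 and 42 reads in lone and 11, 12 and 19 in cocultured libraries and was 2.29-fold lower (log2 -1.2, SE 0.337, edgeR adjusted p = 0.00632). Its counts were low, and whether counting used strand is not given, so its reads are uncertain. Ptgdr and Ptgfr had 0 counts in every library, which allows up to 0.0618 CPM alone and 0.0639 CPM in coculture.

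In the leukotriene lists Cotl1, which encodes a partner protein of 5-lipoxygenase, was the only 1 of 7 tested synthesis and export genes to pass, rising 1.31-fold to 217 ± 7.78 CPM (edgeR adjusted p = 1.87e-07). The leukotriene A hydrolase gene Lta4h was at 65.7 ± 0.477 and 63.2 ± 3.01 CPM (adjusted p = 0.490), and the leukotriene C synthase gene Ltc4s at 1.11 ± 0.705 and 2.01 ± 0.565 CPM (adjusted p = 0.0760). Of the leukotriene and lipoxin receptor genes 2 could be tested. Cysltr1, a cysteinyl leukotriene receptor, rose 1.58-fold from 18.2 ± 2.82 to 28.8 ± 1.64 CPM (adjusted p = 8.80e-06), and Fpr2, a formyl peptide receptor that also binds lipoxin, went from 5 to 37 counts over the groups. Fpr2 reached the filter only in coculture, so its direction was fixed and no p is given. None of the 7 other lipoxygenase and epoxide hydrolase genes reached the level needed for a test, and the most abundant, Alox15 and Aloxe3, had 5 counts each alone and 9 and 6 in coculture.

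**Figure D5:**
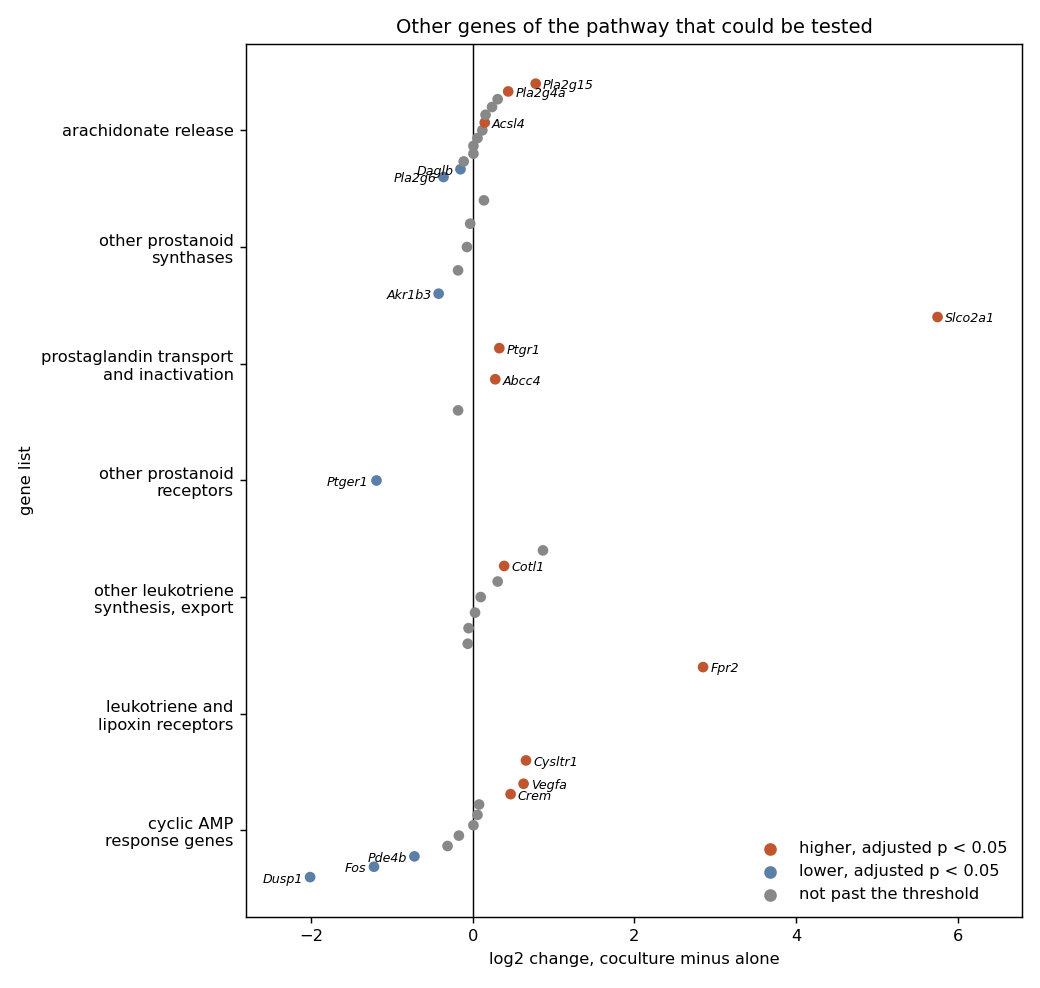
Log2 change of each tested gene on the other lists of the pathway and the cyclic AMP response list, grouped by role, with genes past the threshold named (3 libraries per group). Most points lie within 1 of 0, Slco2a1 is far to the right on 3 lone counts, and Dusp1, Fos and Ptger1 are the lowest.

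A list of genes known to respond to cyclic AMP, the messenger of the 3 receptors above, went both ways. Of 10 tested 2 rose and 3 fell, with a median of -0.08, beside 21.7% and 15.2% of all genes tested. Pde4b, a cyclic AMP phosphodiesterase, was 1.65-fold lower, from 19.1 ± 0.653 to 11.6 ± 0.436 CPM (edgeR adjusted p = 4.99e-06). The immediate early genes Dusp1 and Fos, which answer to many stimuli besides cyclic AMP, were 4.02-fold and 2.33-fold lower. The members that rose were Vegfa, a growth factor gene (1.55-fold, to 54.8 ± 7.92 CPM), and Crem, a transcription factor of the cyclic AMP response (1.38-fold, to 10.3 ± 0.0910 CPM).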

How the data were processed

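RNA was measured in 6 libraries of sorted RAW264.7 cells, 3 alone and 3 in coculture. Per the labels' protocols, RNA was poly-A selected and copied with random hexamers. Tools named in the submitters' processing notes, with no role given, include the aligner HISAT2 2.0.5 and the read counter featureCounts 1.5.0-p3, and the build is mm10. The authors deposited raw counts per gene and FPKM values, per the file headers. Each FPKM value of a gene with over 50 counts equalled its count per kilobase and per unit of depth to within a library factor of 0.996 to 1.00. There were 0 rows without a gene and 0 columns of other samples.

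The main test was edgeR 4.0.16 (R 4.3.3): TMM scaling, filterByExpr by group (12972 genes kept), quasi-likelihood F test with a single group term. Each SE was derived from the test, as the absolute log2 change divided by the square root of the F statistic. Intervals of 95% use this SE and the degrees of freedom of the fit. Replicate pairs differed by more than sampling noise (chi-square per degree of freedom 3.10 to 4.82). The members and lists were chosen with earlier results of these data known. Named genes were all 10 members and, per list, the largest changes past the threshold (up to 3, with a mean of 1 CPM or more in either group), else up to 2 of the highest level. Further genes named, chosen after their values were seen, were Acsl4, Daglb, Ptges2, Ptges3, Ptgds, Akr1c18, Ptgis, Hpgd, Ptgdr, Ptgfr, Lta4h, Ltc4s, Fpr2, Vegfa, Crem and the markers Adgre1, Itgam, Tyrobp, Spi1, Cd68, Acta2, Ms4a2, Cpa3 and Kit. Alternatives were other scalings, filters and gene sets, a replicate block, leaving out single libraries, DESeq2 1.42.0, limma-voom (limma 3.58.1) and limma on log2(FPKM + 1) or log2(FPKM + 0.1). The procedure was tested on simulated data.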

Additional observations from a re-analysis of the deposited data

How the results depend on the processing

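All 5 members that changed kept their direction and stayed past the threshold in all 18 alternatives (17 for Tbxas1, which has a mean FPKM under 1), and the other 5 kept their sign. On log2(FPKM + 1) with a mean FPKM of at least 1, 1707 genes rose against 2819, and 2 other pathway genes fell against 4. With no filter on low counts 14 other pathway genes rose against 9. Leaving out 1 library at a time moved the difference in the Ptgs2 share between -2.93 and 0.677 percentage points, the positive value without coculture replicate C, so no direction is read from it. Little pairing by replicate letter was seen. Same-letter deviations from the group means correlated at 0.001, 0.020 and 0.035 across genes, and other-letter ones at -0.038 to 0.018. With so few libraries these values cannot show whether libraries of the same letter were handled together. With the replicate block 2815 genes rose and 1951 fell, and Tbxas1 had a log2 change of 2.01. Depth limits Ptges, Ptger2 and Tbxas1, which rest on 11 to 66 counts per library.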
